A study of Mus musculus with 4 samples.

Results

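The apolipoprotein L genes of the mouse were followed in LPC-HRas cells that overexpress UBXN9 and in control LPC-HRas cells. LPC-HRas is a line of mouse liver cancer cells, and all were left unstimulated. The genes described are Apol6, Apol7a, Apol7e, Apol8, Apol9a, Apol9b and Apol10b, which are 7 of the 14 genes named Apol in the count table and 7 of its 55487 annotated identifiers. They were chosen from the Apol genes on chromosome 15 with the counts of this comparison known, so their levels and fold changes between the groups are a description and not a test. The other 7 Apol genes had at most 5 counts in any library. UBXN9-overexpressing cells and control cells were measured in 2 libraries each, called UBXN9 1, UBXN9 2, control 1 and control 2. The study concerns UBXN9, the RNA exosome and the control of liver tumours by T cells; UBXN9 is the product of Aspscr1, a protein with a UBX domain, the module through which such proteins contact the ATPase VCP. Both groups carry the same LPC-HRas background and grew in the same serum-containing medium. How UBXN9 was introduced, what the control cells received, whether either line is a clone and whether the libraries came from separate cultures are not given in the sources used here, and p-values therefore measure only the spread between these libraries.

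Apolipoproteins L are named for human APOL1, which travels on high-density lipoprotein and lyses trypanosomes, but most of the family stays inside the cell. Their amphipathic helices bind and can permeabilise membranes, and several members are induced by interferon: human APOL3 acts against bacteria in the cytosol, mouse Apol9a and Apol9b restrict replication of a picornavirus, and mouse Apol7c damages phagosome membranes in dendritic cells. Mice have no copy of APOL1 and instead carry a tandem cluster of related genes on chromosome 15. Interferon acts on such genes through factors such as STAT2 and IRF9, which bind in a complex at the interferon-stimulated response element (ISRE), and through a further element, the gamma-activated site (GAS).

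The libraries held 21814969 and 26292686 estimated counts in UBXN9 1 and UBXN9 2, against 24677770 and 22147475 in control 1 and control 2. Aspscr1, the overexpressed gene, stood at 391 and 379.6 CPM in UBXN9 1 and 2, against 92.0 and 115 CPM in control 1 and 2 (log2 fold change 1.90, SE 0.18, edgeR adjusted p = 0.00144). The antisense gene Gm17178 shares 355 exon bases with it. CPM are depth-scaled counts, with TMM factors from edgeR. Of 10 liver progenitor and biliary markers, Spp1 and Sox9 led and Prom1 was at 0. Of the 6 tested, 3 were called lower: Cd24a had 28.4 and 26.6 CPM in UBXN9 1 and 2, against 58.5 and 55.5 CPM in control 1 and 2, Krt19 had 3.28 and 2.15 CPM, against 7.05 and 10.4 CPM, and Krt18 had 0.348 and 0.113 CPM, against 2.67 and 2.99 CPM (edgeR adjusted p = 0.0102 for Cd24a, 0.0294 for Krt19 and 0.00972 for Krt18). What part this difference between the lines has in the results was not tested. Of 8 hepatocyte markers 4, Alb among them, were at 0 in every library and all 8 summed to 1.44 and 1.62 CPM in UBXN9 1 and 2, against 1.41 and 0.997 CPM in control 1 and 2. Markers of macrophages and dendritic cells summed to 12.4 and 10.1 CPM in UBXN9 1 and 2, against 6.83 and 6.94 CPM in control 1 and 2, with none of the 10 at 0 in all libraries. Of these markers, Ptprc had 3 and 1 counts in UBXN9 1 and 2 and 0 in both controls. Lyz2, the one called of 3 tested (edgeR adjusted p = 0.0408), had 3.13 and 3.09 CPM in UBXN9 1 and 2, against 1.11 and 0.635 CPM in control 1 and 2. Cd68, the most abundant, had 5.72 and 6.52 CPM in UBXN9 1 and 2, against 5.07 and 5.53 CPM in control 1 and 2, and Csf1r had 2.79 and 0.301 CPM, against 0.458 and 0.635 CPM, and the part of such cells in the results below was not tested. The 8 T, B and NK cell markers summed to at most 0.249 CPM in any library. The 6 endothelial markers summed to 7.66 and 7.46 CPM in UBXN9 1 and 2, against 5.30 and 5.03 CPM in control 1 and 2, and the 6 stellate cell and fibroblast markers to 531 and 654 CPM, against 493 and 445 CPM. Among the last, Col1a1 was the one called, with 109 and 144 CPM in UBXN9 1 and 2, against 30.2 and 24.8 CPM in control 1 and 2 (edgeR adjusted p = 0.00136). Col3a1 had 225 and 269 CPM, against 287 and 257 CPM, and Pdgfrb had 196 and 240 CPM, against 174 and 162 CPM. Col1a2 was low, with 0.249 and 0.414 CPM in UBXN9 1 and 2, against 0.686 and 0.453 CPM in control 1 and 2. Rn7sk, which carries no poly-A tail, had 5.47 and 26.4 CPM in UBXN9 1 and 2, against 1.68 and 2.31 CPM in control 1 and 2 (log2 fold change 3.01, SE 0.70, edgeR adjusted p = 0.0488). The ribosomal RNA gene CT010467.1 had 5526 and 8119.9 CPM in UBXN9 1 and 2, against 1983 and 3427 CPM in control 1 and 2 (log2 fold change 1.33, SE 0.34, edgeR adjusted p = 0.0626), and what part RNA selection has in the results was not tested. In bulk RNA, more cells of a kind and more RNA per cell cannot be told apart.

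Most of the 7 genes were higher in UBXN9-overexpressing cells, by between 3.01-fold and 12.0-fold where a fold can be given, and Apol7a and Apol8 were not. With an edgeR adjusted p under 0.05 taken as a call, 5 of the 7 genes were called higher and 0 lower, beside 5.06% higher and 2.38% lower (7.44% in either direction) among the 13230 genes tested. Apol6, Apol7e, Apol9a, Apol9b and Apol10b were the 5 called. The median log2 fold change of the 7 was 1.82, beside -0.0056 over all tested genes. All 7 passed the filter on low counts, but Apol7e and Apol10b had at least 10 counts only in the UBXN9 libraries, so their passing already required a difference, and the counts and median of the list carry no weight as support.

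**Figure D1:**
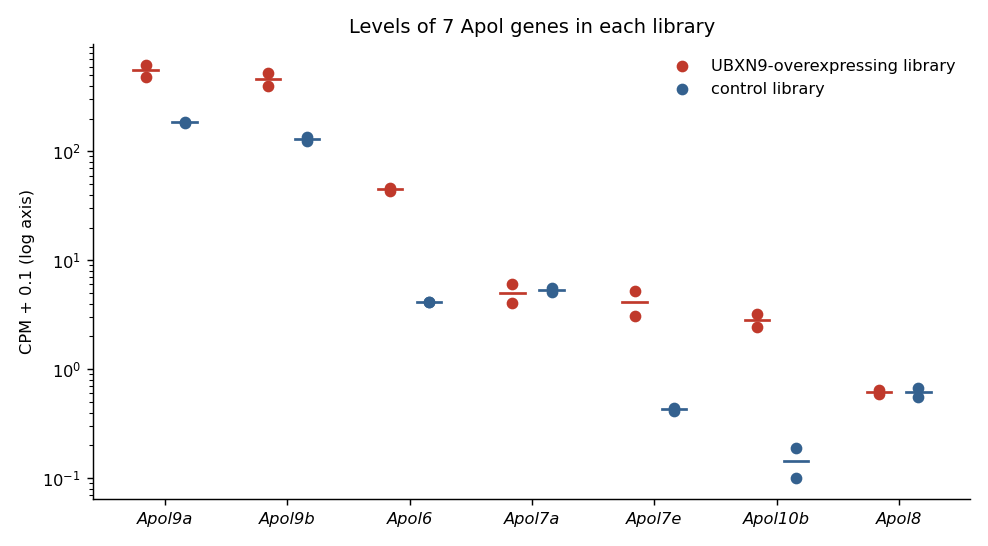
Level of each of the 7 Apol genes in each library, as CPM + 0.1 on a log axis, with UBXN9-overexpressing libraries in red and control libraries in blue; points are libraries and short lines group means (n = 2). Apol9a and Apol9b lie highest in both groups, Apol6, Apol7e and Apol10b show the widest gaps between the groups, and the points of Apol7a and Apol8 overlap.

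Apol9a and Apol9b, the interferon-inducible antiviral members, held nearly all of the family's RNA. They lie on opposite strands, Apol9a at chr15:77403789-77411135 on the minus strand and Apol9b at chr15:77729039-77736382 on the plus strand (GRCm38). Apol9a had 625 and 483 CPM in UBXN9 1 and 2, against 182 and 187 CPM in control 1 and 2. Apol9b had 524 and 395 CPM in UBXN9 1 and 2, against 125 and 135 CPM in control 1 and 2. For both genes every UBXN9 library lay above both controls, as it did for 25.0% of all tested genes (50.6% had groups that did not overlap in either direction), and UBXN9 1 was the higher of its pair. Apol9a averaged 554 ± 99.8 CPM in UBXN9-overexpressing cells and 184 ± 3.39 CPM in control cells (SD, n = 2 each), a 3.01-fold rise with a log2 fold change of 1.59 (SE 0.19). Apol9b averaged 459 ± 91.1 CPM in UBXN9-overexpressing cells and 130.5 ± 7.03 CPM in control cells (SD, n = 2 each), a 3.52-fold rise with a log2 fold change of 1.82 (SE 0.20). Both genes together made up 95.3% and 93.8% of the counts of the 7 genes in UBXN9 1 and 2, and 96.7% and 97.0% in control 1 and 2. The 7 genes took 0.111% and 0.095% of all annotated counts in UBXN9 1 and 2, against 0.0339% and 0.0332% in control 1 and 2.

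The coding sequences of Apol9a and Apol9b are both 930 bases long and 98.5% identical, so reads from one can be counted under the other. Of all stretches of 100 bases in the annotated transcripts, 11.7% of those of Apol9a and 36.7% of those of Apol9b occur word for word in the other gene. Added up before the fit, the pair had 1013 ± 191 CPM in UBXN9-overexpressing cells and 315 ± 10.4 CPM in control cells (SD, n = 2 each), with a log2 fold change of 1.69 (SE 0.20). The division of counts between them also differed. Apol9a took 54.4% and 55.04% of the pair's counts in UBXN9 1 and 2, against 59.2% and 57.9% in control 1 and 2, so the shares of the groups did not overlap. With 2 libraries in each group an exact two-sided permutation test reaches no p below 0.333, and the share comes from the same counts that chose the genes, so no test is given.

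**Figure D2:**
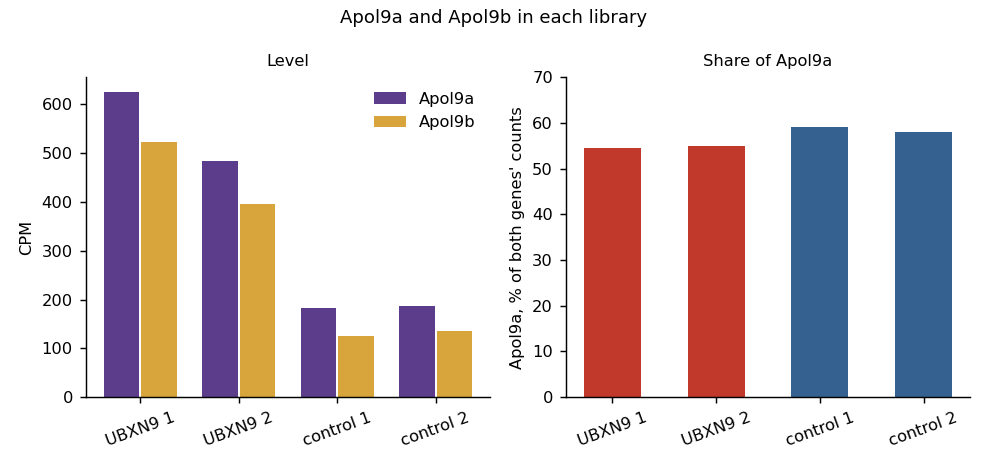
Left, CPM of Apol9a and Apol9b in each library; right, the percent of both genes' counts that was assigned to Apol9a, with UBXN9 libraries in red and control libraries in blue. Each bar is 1 library: levels are higher in both UBXN9 libraries, and the Apol9a share lies between 54.4% and 55.04% there and between 57.9% and 59.2% in the controls.

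Apol6, whose human counterpart is linked to cell death, sits apart from the rest of the cluster at chr15:77044729-77057106 on the plus strand. It had 871 and 1229.95 counts in UBXN9 1 and 2, against 105 and 90 counts in control 1 and 2. In CPM these were 43.3 and 46.3 in the UBXN9 libraries, against 4.004 and 4.08 in the controls. The groups lay far apart and the libraries of each lay close together, with a log2 difference of -0.10 between UBXN9 1 and 2 and -0.03 between control 1 and 2. The log2 fold change was 3.47 (SE 0.19), an 11.1-fold rise. None of the 100-base stretches of Apol6 occurs in another annotated gene. Its annotation shares 64 exon bases with Mb, the myoglobin gene on the opposite strand, and whether counting used strand is not given in the sources used here.

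Apol7e and Apol10b were nearly silent in control cells. Apol7e (chr15:77698857-77719285, plus strand) had 102 and 80 counts in UBXN9 1 and 2, against 9 and 7 counts in control 1 and 2. Its log2 fold change was 3.58 (SE 0.46), a 12.0-fold rise, and UBXN9 1 exceeded UBXN9 2 by 0.74 on the log2 scale, more than the median absolute difference of 0.313 over all tested genes. Apol10b (chr15:77583819-77596125, minus strand) had 63 and 62 counts in UBXN9 1 and 2, against 0 and 2 counts in control 1 and 2. Its summed, depth-scaled counts gave a ratio of 64.7, with an exact Clopper-Pearson 95% interval of 17.5 to 540.0 that covers counting error only. The fitted log2 fold change of Apol10b was 5.86 (SE 0.78), and it was 4.82 without control 1 and 9.05 without control 2, since the control level rests on 2 counts in a single library. Even at its height Apol10b reached only 3.13 CPM.

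Apol7a and Apol8 were expressed without a difference that passed the test. Apol7a (chr15:77388219-77399110, minus strand) had 79 and 157 counts in UBXN9 1 and 2, against 142 and 110 counts in control 1 and 2. In CPM the controls, at 5.41 and 4.99, lay between the UBXN9 libraries, at 3.93 and 5.91, and the log2 fold change was -0.07 (SE 0.30). It took either sign when 1 UBXN9 library was left out, at 0.19 without UBXN9 1 and -0.40 without UBXN9 2. Apol8 (chr15:77747798-77757003, minus strand) had 11 and 13 counts in UBXN9 1 and 2, against 15 and 10 counts in control 1 and 2. Its log2 fold change was 0.01 (SE 0.53), and the SE was 1.12 by DESeq2. With so few counts a change of moderate size could also have gone undetected.

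**Figure D3:**
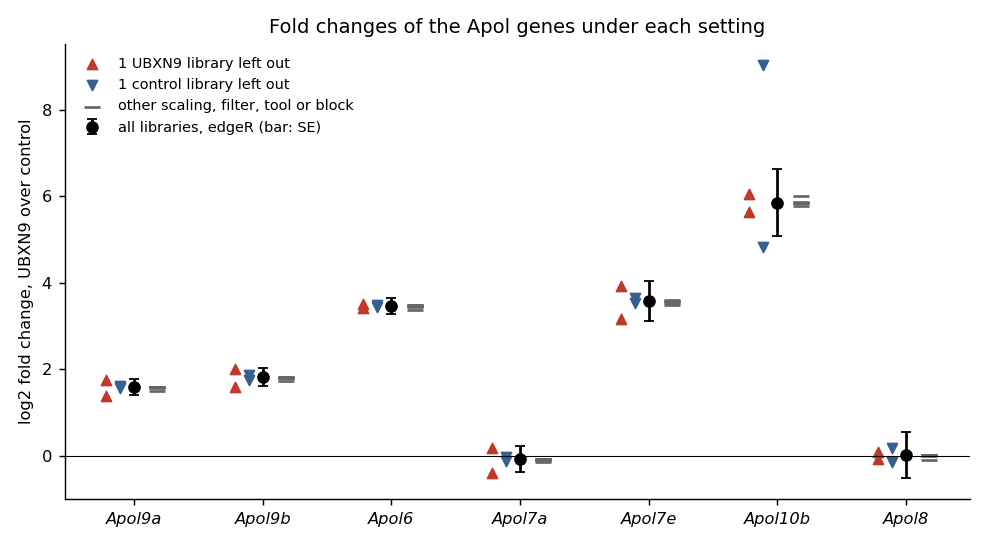
log2 fold change of each Apol gene, UBXN9 over control, with all 4 libraries (black, bars are the SE), with 1 UBXN9 library left out (red triangles), with 1 control library left out (blue triangles) and under other scalings, filters, tools or a replicate block (grey bars). Apol6, Apol7e, Apol9a, Apol9b and Apol10b stay above 1 in each, Apol10b spreads from 4.82 to 9.05, and Apol7a lies on both sides of 0.

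Per kilobase of annotated exon, the order of the genes differed between the groups. In UBXN9-overexpressing cells the mean level was 252 CPM per kb for Apol9b, 93.1 for Apol9a, 9.97 for Apol6, 1.68 for Apol7e, 1.62 for Apol7a, 1.18 for Apol10b and 0.175 for Apol8. The library ranges of Apol7e, Apol7a and Apol10b overlapped there, at 2.102 and 1.25 for Apol7e, 1.30 and 1.95 for Apol7a, and 1.35 and 1.00 CPM per kb for Apol10b in UBXN9 1 and 2. In control cells the order was 71.6 CPM per kb for Apol9b, 31.0 for Apol9a, 1.72 for Apol7a, 0.899 for Apol6, 0.173 for Apol8, 0.137 for Apol7e and 0.0195 for Apol10b. Apol8, at 0.193 and 0.153 CPM per kb in control 1 and 2, and Apol7e, at 0.142 and 0.131, differed there by less than the spread of Apol8. Apol7a therefore stood above Apol6 in control cells and below it in UBXN9-overexpressing cells. The annotated exons of Apol9a span 5953 bases and those of Apol9b 1821 bases for coding sequences of one length, so the distance between these 2 levels depends on the annotation.

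The rest of the family was silent or close to it. Apol7c, Apol10a, Apol11a, Apol11b and the pseudogene Apol10c-ps had 0 counts in all 4 libraries. A count of 0 allows up to 3 counts, which is between 0.113 and 0.149 CPM depending on the library. Apol7b had 0 and 2 counts in UBXN9 1 and 2 and 0 in both controls. Apol7d, which despite its name is annotated on chromosome 1 opposite Fn1 and shares 292 exon bases with it, had 5 and 2.01 counts in UBXN9 1 and 2, against 0 and 2 in control 1 and 2. Apold1, a relative on chromosome 6 known from endothelial cells, had 16 and 26 counts in UBXN9 1 and 2, against 52 and 26 in control 1 and 2 (log2 fold change -0.83, SE 0.45, edgeR adjusted p = 0.35).

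The promoters are shown because an interferon element is present in some of them and absent from others. RefSeq promoter windows on GRCm38.p6, from 250 bases before to 50 after each annotated start, were found for 6 of the 7 genes, all but Apol6. They were searched on both strands for GAAANNGAAA, the core of the ISRE, which reads TTTCNNTTTC on the other strand, and for TTCNNNGAA, the GAS, which reads the same on both. An ISRE match lay in the windows of Apol7e, Apol9a, Apol9b and Apol10b, and none in those of Apol7a and Apol8, whereas no GAS match lay in any of the 6. Over all 27025 genes with a window, 3.99% had an ISRE match and 9.55% a GAS match. Capitals mark the ISRE matches in the windows below, each printed 5′ to 3′ on the strand of its gene. In Apol9b (chr15:77728822-77729121) and in Apol7e (chr15:77698639-77698938) a pair of matches overlaps by 4 bases, and in Apol10b (chr15:77596076-77596375) a single match spans the RefSeq start. The windows of Apol7a (chr15:77399061-77399360) and Apol8 (chr15:77756961-77757260) carry no capitals.
Apol9b: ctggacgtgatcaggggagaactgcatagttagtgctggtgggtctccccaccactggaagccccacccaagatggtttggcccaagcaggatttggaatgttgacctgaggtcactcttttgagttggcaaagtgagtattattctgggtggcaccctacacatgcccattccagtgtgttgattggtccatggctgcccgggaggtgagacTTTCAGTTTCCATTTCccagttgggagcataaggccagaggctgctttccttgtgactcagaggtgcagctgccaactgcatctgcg
Apol7e: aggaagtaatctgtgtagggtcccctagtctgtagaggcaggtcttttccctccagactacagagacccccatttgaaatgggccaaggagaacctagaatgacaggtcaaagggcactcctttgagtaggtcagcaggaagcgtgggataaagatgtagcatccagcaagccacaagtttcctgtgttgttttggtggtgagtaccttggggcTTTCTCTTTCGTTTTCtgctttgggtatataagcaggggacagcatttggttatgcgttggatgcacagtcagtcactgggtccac
Apol10b: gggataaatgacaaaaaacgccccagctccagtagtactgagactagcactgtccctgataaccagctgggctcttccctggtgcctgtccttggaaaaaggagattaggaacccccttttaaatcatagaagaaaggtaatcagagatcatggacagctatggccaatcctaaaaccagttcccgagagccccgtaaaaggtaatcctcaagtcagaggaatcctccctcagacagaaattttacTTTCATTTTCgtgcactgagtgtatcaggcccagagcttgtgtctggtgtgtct
Apol7a: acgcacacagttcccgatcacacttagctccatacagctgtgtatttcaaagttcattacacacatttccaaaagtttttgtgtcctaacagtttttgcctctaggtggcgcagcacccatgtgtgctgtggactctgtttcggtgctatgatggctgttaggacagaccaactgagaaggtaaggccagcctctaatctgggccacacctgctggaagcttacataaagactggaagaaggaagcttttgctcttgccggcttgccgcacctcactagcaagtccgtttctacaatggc
Apol8: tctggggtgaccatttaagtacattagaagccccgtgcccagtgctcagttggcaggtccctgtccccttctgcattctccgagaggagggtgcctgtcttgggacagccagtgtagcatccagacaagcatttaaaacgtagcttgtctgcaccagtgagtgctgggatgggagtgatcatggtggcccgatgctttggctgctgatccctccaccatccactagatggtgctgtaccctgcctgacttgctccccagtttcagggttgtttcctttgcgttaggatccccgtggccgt

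The windows of Apol9a and Apol9b are identical over the 232 bases they have in common, ISRE matches included. Those matches lie at -37 to -28 and -31 to -22 from the RefSeq start of Apol9b, and at -105 to -96 and -99 to -90 from that of Apol9a. Both genes have a second RefSeq start, from which the distances differ. In Apol7e the matches lie at -36 to -27 and -30 to -21, and in Apol10b at -4 to 6, also from RefSeq starts. The gene coordinates given above are from GENCODE M21 and differ in part. By them the starts of Apol7e, Apol9a, Apol9b and Apol10b all lie inside their ISRE matches, so these distances depend on the annotation.

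Apol7e and Apol7b form the closest contrast in the family. Their coding sequences, of 1107 bases each, are 98.9% identical, and their promoter windows are 97.7% identical over 300 aligned positions. Between the windows there are single-base differences at T-88C and T34A, written as the Apol7e base, its position from the RefSeq start of Apol7e and the Apol7b base. A gap of 5 bases in Apol7b, opposite -30 to -26 of Apol7e, is the remaining difference. It falls inside the ISRE matches of Apol7e, and the Apol7b window holds none. The stretches around the gap, from chr15:77698839-77698883 on the plus strand and chr15:77447466-77447505 on the minus strand, are given with ISRE matches in capitals.
Apol7e: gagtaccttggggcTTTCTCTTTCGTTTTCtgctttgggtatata
Apol7b: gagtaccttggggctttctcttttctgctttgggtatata
Apol7e had 182 counts over the UBXN9 libraries and 16 over the controls, against 2 and 0 for Apol7b. Whether the gap has a part in this difference was not tested. Of the 100-base stretches in Apol7e transcripts 54.4% occur word for word in Apol7b, so counts could be exchanged between them, and how such reads were handled is not given in the sources used here.

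ISRE matches were also present in Apol genes without counts. Of the 5 other Apol genes with a window, 4 had an ISRE match, namely Apol7c, Apol10a, Apol11a and Apol11b, and 3 of these also had a GAS match. All 4 were at 0 counts in every library. The window of Apol7c (chr15:77533266-77533565), the dendritic cell gene, holds a pair of overlapping matches at -55 to -46 and -49 to -40, and is shown with them in capitals.
Apol7c: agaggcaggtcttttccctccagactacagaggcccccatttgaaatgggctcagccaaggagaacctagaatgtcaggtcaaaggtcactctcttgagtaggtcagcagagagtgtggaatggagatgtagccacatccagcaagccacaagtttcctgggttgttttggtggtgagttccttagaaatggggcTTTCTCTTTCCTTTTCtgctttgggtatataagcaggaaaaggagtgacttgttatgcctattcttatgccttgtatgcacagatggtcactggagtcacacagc
Outside the family, ISRE matches were found in the windows of 18.1% of 465 genes called higher, 3.72% of 215 called lower and 3.77% of all 9722 tested genes with a window. These matches describe letters and not bound sites.

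Genes around the cluster were mostly not called, as were most tested genes. The 13 Apol genes of chromosome 15 span 712 kb from Apol6 to Apol8. Of 127 other annotated genes within 1 Mb of that span, 55 had enough counts to test. Of these, 2 were called higher and 2 lower, beside 5.06% higher and 2.38% lower of all 13230 tested genes. The median log2 fold change of the 55 was -0.14, beside -0.0056 over all tested genes. Over all 528 tested genes of chromosome 15 the median was -0.04. The highest medians among chromosomes with at least 20 tested genes were 0.31 on chromosome 8 and 0.27 on chromosome 4. Rbfox2, a splicing regulator between Apol6 and Apol7a, was the only tested gene of another family inside the span and had 219 and 222 CPM in UBXN9 1 and 2, against 236 and 214 CPM in control 1 and 2 (log2 fold change -0.03, SE 0.15, edgeR adjusted p = 0.951). Myh9, the nonmuscle myosin gene next to Apol8, had a log2 fold change of -0.09 (SE 0.21, edgeR adjusted p = 0.874).

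Mb, the nearest tested gene before Apol6, was called higher. It had 16.7 and 10.9 CPM in UBXN9 1 and 2, against 2.97 and 2.54 CPM in control 1 and 2 (log2 fold change 2.31, SE 0.30, edgeR adjusted p = 0.00557). Because Mb overlaps Apol6 in 64 exon bases on the opposite strand, reads of Apol6 may be counted under it, and their part in the result was not tested. Parp10, an ADP-ribosyltransferase gene on the same side, had 291 and 249.4 CPM in UBXN9 1 and 2, against 56.6 and 60.3 CPM in control 1 and 2 (log2 fold change 2.21, SE 0.17, edgeR adjusted p = 0.000631). Fbxl6, an F-box gene, fell by 0.76 on the log2 scale (SE 0.16, edgeR adjusted p = 0.039), but its adjusted p was 0.164 without control 1 and 0.419 without control 2. Scx, the tendon transcription factor scleraxis, fell by 1.03 (SE 0.23, edgeR adjusted p = 0.0411), with 0.073 and 0.402 in the same settings.

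**Figure D4:**
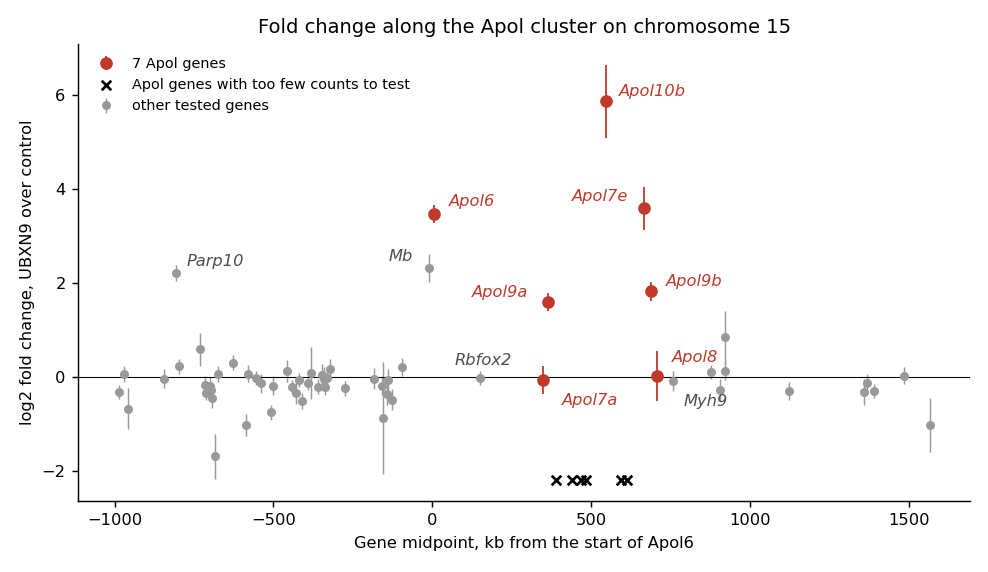
log2 fold change, UBXN9 over control, of tested genes against the distance of each gene's midpoint from the start of Apol6 in kb; bars are the SE. The 7 Apol genes are red, other tested genes grey, and crosses below mark the 6 Apol genes of chromosome 15 with too few counts to test. Higher Apol genes lie beside Apol7a and Apol8 at about 0, and most other genes lie near 0.

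Genes of the interferon pathway were set beside the family. Of 35 listed genes 26 were tested, and 11 were called higher and 1 lower. Among all 13230 tested genes 5.06% were called higher and 2.38% lower. The median log2 fold change of the 26 was 0.40, beside -0.0056 over all tested genes. The list was chosen with earlier results of these data known. The ligand Ifnb1 had 28 and 45 counts in UBXN9 1 and 2, against 2 and 5 counts in control 1 and 2 (log2 fold change 3.35, SE 0.61, edgeR adjusted p = 0.0206). Its log2 fold change was 2.74 without control 1, with an adjusted p of 0.109, and 4.25 without control 2, and it lies on chromosome 4. None of the 6 receptor genes was called, and Ifnar1 had a log2 fold change of -0.15 (SE 0.15, edgeR adjusted p = 0.635).

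Stat2 and 5 of the 7 listed interferon regulatory factor genes were called higher, and Irf3 (log2 fold change -0.02, edgeR adjusted p = 0.971) and Irf8 (-3.21, 0.0523) were not called. Irf8 had 2 and 1 counts in UBXN9 1 and 2, against 16 and 15 counts in control 1 and 2. Stat2 had 268 and 281 CPM in UBXN9 1 and 2, against 99.3 and 84.2 CPM in control 1 and 2, a 2.99-fold rise (log2 fold change 1.58, SE 0.17, edgeR adjusted p = 0.0023). Irf9, its partner, had 116 and 99.3 CPM in UBXN9 1 and 2, against 62.4 and 69.0 CPM in control 1 and 2, a 1.64-fold rise (edgeR adjusted p = 0.0467). The call of Irf9 was lost without control 1 (adjusted p = 0.443) and without control 2 (0.281), and with library size alone as the scaling (0.0532). Irf7 rose 6.22-fold, Irf5 6.39-fold, Irf1 3.67-fold and Irf2 2.06-fold, and Irf2, which lies on chromosome 8, was not called without control 2 (adjusted p = 0.176) or with library size alone (0.0539). The feedback inhibitors Usp18 and Socs1 rose 6.52-fold and 2.48-fold, against 3.01-fold and 3.52-fold for Apol9a and Apol9b. The inhibitor genes Socs3 and Ptpn2 were not called, with log2 fold changes of 0.14 and 0.02 (edgeR adjusted p = 0.703 and 0.961). The tyrosine phosphatase gene Ptpn6 was the one called lower, with a log2 fold change of -1.70 (SE 0.32, edgeR adjusted p = 0.0227), and it was not called without control 2.

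A few other apolipoproteins and genes of lipoprotein particles were called, and of these Apoe alone was lower. Of 32 listed genes 18 were tested, and 4 were called higher and 1 lower, beside 5.06% higher and 2.38% lower of all 13230 tested genes. The 18 include Apoo, Apool and Apold1, which were listed as relatives by name only and were not called. The median log2 fold change of the 18 was 0.49, which was 0.25 with no filter on low counts and 0.27 by DESeq2. The list was chosen with earlier results of these data known. Apod, which encodes a lipocalin and is no relative of the L family, had 17.0 and 14.3 CPM in UBXN9 1 and 2, against 0.458 and 0.272 CPM in control 1 and 2 (log2 fold change 5.38, SE 0.35, edgeR adjusted p = 0.000388). Apoe, the ligand of the LDL receptor on lipoproteins, fell to 2.39 and 1.81 CPM in UBXN9 1 and 2, against 10.5 and 11.2 CPM in control 1 and 2 (log2 fold change -2.38, SE 0.27, edgeR adjusted p = 0.00358). The endothelial lipase gene Lipg rose 4.10-fold and the cholesterol exporter gene Abca1 4.78-fold (edgeR adjusted p = 0.000871 and 0.011). Abca1 lies on chromosome 4, where the median over tested genes was 0.27. Apob, the structural protein of low-density lipoprotein, had 0 counts in both UBXN9 libraries and 0 and 1 counts in control 1 and 2.

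**Figure D5:**
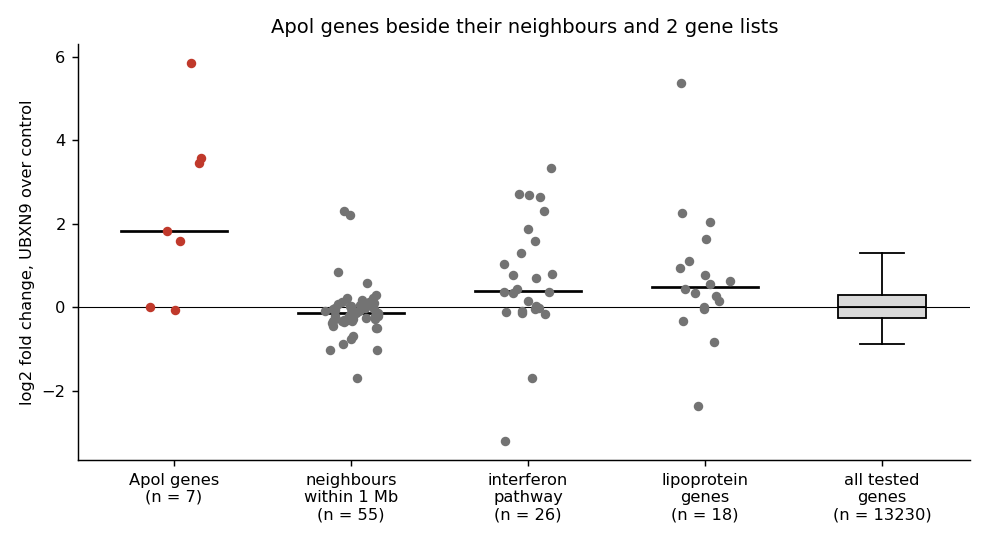
log2 fold change, UBXN9 over control, of the 7 Apol genes, the 55 tested neighbours within 1 Mb, 26 interferon pathway genes and 18 genes of the lipoprotein list, with lines at the medians (1.82, -0.14, 0.40 and 0.49). The box on the right gives the quartiles of all 13230 tested genes, with whiskers at the 5th and 95th percentiles. The Apol genes split into 5 above 1.5 and 2 at about 0.

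Apol9a had the most counts of the family, and its profile over the 4 libraries was set against the 13223 tested genes outside the family. Likeness was the root mean square difference of centred log2 CPM, which had a median of 0.839 over all these genes and was 0.117 for Apol9b. The smallest values belonged to Lpcat2, a phospholipid acyltransferase gene on chromosome 8, at 0.0232, and to the neurofilament gene Nefl at 0.0252. Gm49342, which overlaps Pnp and Pnp2 so that reads may be shared, followed at 0.0401, then Lrpap1, which encodes a chaperone of the LDL receptor family, at 0.0421 and March5, a mitochondrial ubiquitin ligase gene, at 0.0444. Each shares with Apol9a a log2 fold change between 1.58 and 1.64 and a higher value in UBXN9 1 than in UBXN9 2. Both traits follow from choosing the genes by likeness over these same 4 libraries, and are no separate result. The edgeR calls of Lpcat2, Nefl and Lrpap1 were lost without control 2, with adjusted p values of 0.0514, 0.0764 and 0.0646.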

How the data were processed

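RNA of 4 libraries was measured after preparation with the TruSeq RNA kit and sequencing on an Illumina HiSeq instrument, per the labels' protocols. The authors deposited estimated counts per gene, without scaling for depth, and per the submitters' processing notes HISAT2 2.1.0, HTSeq and GRCm38.p6 were used. Settings, annotation and the handling of strand, overlaps and multiply mapped reads are not given in the sources used here. Values were rounded, and 241 of 55728 entries outside the annotation, with 0.302% to 0.535% of the counts, were left out. Of 55487 identifiers 55141 were found in GENCODE M21 (GRCm38).

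Groups were compared with edgeR 4.0.16 (R 4.3.3), with TMM factors, filterByExpr and two-sided quasi-likelihood F tests between groups, adjusted by Benjamini-Hochberg over 13230 genes. The procedure was run on simulated counts with 200 changed genes, drawn independently for each library. Such counts lack the correlated deviations seen between these libraries, so that run does not test the calls made here. DESeq2 1.42.0, other scalings and filters, a replicate block and leaving out each library were alternatives. Members, lists and tests were chosen with earlier results of these data known. Named were all Apol genes, Apold1, Aspscr1, interferon genes, up to 4 further genes of each list by p, called and nearest neighbours, and the 5 genes most like Apol9a. Irf3, Irf8, Socs3, Ptpn2, Ptpn6, Ifnar1, Rbfox2, Rn7sk, CT010467.1, Apob and the markers were named after their values were seen. Some items are not reported here. Promoters are RefSeq's; alignments used Biopython 1.88.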

Additional observations from a re-analysis of the deposited data

How the results depend on the processing

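Apol6, Apol9a and Apol9b were called higher in 11 of 11 alternatives, and Apol7e and Apol10b in 10 of 10, all except the minimum of 5 CPM, which left too few counts to test them and so 3 called genes of the family. Adding up Apol9a and Apol9b gave 4 called genes and a median log2 fold change of 2.58, and leaving out 1 library gave medians of 1.601 to 2.01. Over all genes, 1144 were called higher and 683 lower with no filter on low counts, beside 669 and 315. Leaving out 1 library gave 373 to 1611 higher and 135 to 1318 lower: without control 2 there were 373 and 135, without control 1 507 and 195, without UBXN9 1 1611 and 950, and without UBXN9 2 1464 and 1318. Called lower neighbours numbered 0 to 5, called lower interferon pathway genes 0 to 2, called higher lipoprotein genes 3 to 7 and called lower ones 1 to 2 over the same fits. A window of 500 kb held 1 higher and 0 lower neighbours. With no filter 2 interferon genes were lower. The replicate block, with 640 genes higher and 292 lower, gave 0 lower neighbours and 2 lower interferon genes, and Irf9, Fbxl6 and Scx lost their calls. The deviations of same-numbered libraries had a correlation of -0.373 across genes, so the numbers were not taken as pairs. A crossed replicate block, chosen after seeing the data, gave 1776 higher and 1361 lower genes, 6 lower neighbours, 2 lower interferon genes and 8 higher lipoprotein genes. DESeq2 called 826 genes higher and 399 lower. Scaling by library size alone gave a median of -0.0938 over all genes. The cause of these shifts was not tested. With 1 library in a group, its spread is taken from the other group. Apol8 and Apol10b rest on fewer than 70 counts a library.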
